A study of Mus musculus with 2 samples.

Results

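The genes that encode the 4 eIF2 kinases and the sensors of unfolded protein in the endoplasmic reticulum (ER) were followed in cultured mouse fibro/adipogenic progenitors (FAPs), muscle stromal cells able to form fibroblasts and fat cells. The set was chosen by gene symbol and holds 10 of the 30491 genes in the deposited table: Eif2ak1, Eif2ak2, Eif2ak3, Eif2ak4, Ern1, Xbp1, Atf6, Atf6b, Creb3l1 and Creb3l2. All 10 were found, with 36 listed transcripts. Wild-type FAPs freshly sorted from muscle and kept in serum-containing medium were given mouse recombinant Musclin, a secreted peptide encoded by Ostn, at 1 µM for 24 h, or the same amount of vehicle for 24 h, and their total RNA was sequenced. The Musclin group and the vehicle group have 1 library each, so there is no replicate error and no test, and intervals cover counting error alone. The vehicle column is headed BSA and was assigned by elimination, and every direction below rests on that. The sources used here do not say whether a library came from 1 culture or from several pooled ones.

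Phosphorylation of the initiation factor eIF2 lowers general protein synthesis while mRNAs such as that of Atf4 are translated better, a programme called the integrated stress response. Each of the kinases answers to its own signal: HRI (Eif2ak1) to heme shortage and mitochondrial stress, PKR (Eif2ak2) to double-stranded RNA, PERK (Eif2ak3) to unfolded protein in the ER and GCN2 (Eif2ak4) to amino acid shortage. IRE1α (Ern1) cuts the Xbp1 mRNA, which lets a strong transcription factor be made, and ATF6 and ATF6β are ER membrane proteins whose cytosolic part is released by proteases in the Golgi and enters the nucleus. OASIS (Creb3l1) and BBF2H7 (Creb3l2) are released in the same way and are known for their part in collagen secretion. Much of this regulation acts on protein or by mRNA cutting, which gene-level RNA values do not measure.

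A pair of sequences bears on what the values can and cannot show. The first is the stretch of Xbp1 that IRE1 removes, shown because it sets whether the table separates unspliced from spliced Xbp1. It was located in the GENCODE vM21 transcript ENSMUST00000063084 as the 26 bases between a pair of CNGCAG sites whose removal lengthens the reading frame. It lies in exon 4 of 5, on the plus strand of GRCm38 at chr11:5524279-5524304, and capitals mark it, with 24 bases on each side.
Xbp1 with the stretch: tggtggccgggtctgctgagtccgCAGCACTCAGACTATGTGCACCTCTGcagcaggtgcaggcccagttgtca
Xbp1 without the stretch: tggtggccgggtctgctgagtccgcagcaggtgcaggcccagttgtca
With the 26 bases the frame has 267 codons, and without them it has 371. Of the 4 listed Xbp1 transcripts, 3 hold these bases, 1 ends before them and 0 lack them. Spliced and unspliced Xbp1 therefore share 1 value here, and IRE1 cutting of Xbp1 was not measured.

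The second is the promoter window of Eif2ak2, shown because that gene had the largest difference of the 10 between the libraries. It is the RefSeq window on GRCm38.p6, minus strand, chr17:78882523-78882822, and capitals mark a match to GAAANNGAAA, the core of the interferon-stimulated response element (ISRE).
Eif2ak2: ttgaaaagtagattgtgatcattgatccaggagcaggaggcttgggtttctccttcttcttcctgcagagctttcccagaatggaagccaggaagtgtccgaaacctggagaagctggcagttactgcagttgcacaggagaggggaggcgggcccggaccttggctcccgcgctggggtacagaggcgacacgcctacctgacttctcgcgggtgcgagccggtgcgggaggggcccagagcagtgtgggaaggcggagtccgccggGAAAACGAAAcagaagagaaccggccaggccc
The match, GAAAACGAAA, lies at chr17:78882545-78882554, inside the first exon of ENSMUST00000024884. Windows were found for 8 of the 10 genes, and Atf6 and Creb3l1 had none. Searched on both strands, GAAANNGAAA occurred in 1 of those 8 genes and in 3.44% of all 32851 windows. The ER stress elements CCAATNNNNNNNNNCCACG (ERSE) and ATTGGNCCACG (ERSE-II), the unfolded protein response element TGACGTGG, the cyclic AMP response element TGACGTCA and the C/EBP-ATF element TGATGNAAT occurred in 0 of the 8 genes. They were found in 0.119%, 0.0365%, 0.676%, 1.79% and 0.965% of all windows, in that order. A match is a run of letters and was not tested as a binding site.

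Levels are FPKM, read fragments scaled for the length of the transcript and the size of the library, summed over the transcripts of a gene, a scale on which genes of different length can be compared. Depth, read back from the steps between FPKM values, came to 22456831 fragment equivalents of 298 bases (6.69 Gb) for the Musclin library and 22677190 (6.76 Gb) for the vehicle library. Of 10 FAP markers 8 reached 1 FPKM in a library, and the defining gene Pdgfra was at 87.2 FPKM in Musclin-treated FAPs and 79.9 FPKM in vehicle FAPs. The other FAP markers split both ways, with 1 of the 8 past 2-fold upward and 1 downward. The matrix proteoglycan gene Dcn was at 181 with Musclin and 64.8 FPKM with vehicle, the surface marker gene Cd34 at 29.7 with Musclin and 14.5 FPKM with vehicle, and the transcription factor gene Osr1 at 15.1 with Musclin and 34.8 FPKM with vehicle. The endothelial gene Pecam1 was at 0.185 with Musclin and 0.103 FPKM with vehicle and the pan-leukocyte gene Ptprc at 0.383 with Musclin and 0.644 FPKM with vehicle, while the satellite cell genes Pax7 and Myf5 had no row in the table used here. The highest leukocyte marker was Lyz2, at 8.46 with Musclin and 14.1 FPKM with vehicle. The other 2 leukocyte markers that reached 1 FPKM had log2 ratios above 0. Tek was the highest endothelial marker, at 1.58 with Musclin and 3.45 FPKM with vehicle, named after its values were seen. Of the endothelial markers that reached 1 FPKM, 2 were lower with Musclin and 0 higher. Summed levels were 0.683 with Musclin and 1.26 FPKM with vehicle for 4 myogenic markers, 3.08 with Musclin and 5.44 FPKM with vehicle for 5 endothelial, 13.9 with Musclin and 18.6 FPKM with vehicle for 7 leukocyte, 7.24 with Musclin and 6.57 FPKM with vehicle for 5 pericyte and smooth muscle, 4.59 with Musclin and 4.11 FPKM with vehicle for 3 tenocyte, and 1.88 with Musclin and 2.06 FPKM with vehicle for 4 glial markers. The part of such cells in the values below was not tested, and in bulk RNA fewer cells of a type and less RNA per cell cannot be told apart.

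Of the 10 genes, 1 passed 2-fold upward in the Musclin library, Eif2ak2, and 0 passed it downward. Ratios were taken on FPKM plus a pseudocount of 1. Among all 12884 genes with at least 1 FPKM in a library, 1.71% passed 2-fold upward and 1.52% downward, 3.23% in all. At 1.5-fold, Eif2ak2 was higher and Atf6 was lower, against 5.65% and 5.20% of all genes. The other 8 genes lay within 1.5-fold. The median log2 ratio was 0.06 over the 10 genes and -0.02 over all genes. The 95% counting interval of the aligned-base ratio lay above 1 for Eif2ak2, Xbp1, Eif2ak3 and Creb3l2, below 1 for Atf6 and Ern1, and included 1 for the other 4. Over all genes 26.6% of such intervals lay above 1 and 31.0% below, 57.7% in all, and 6 of 10 genes is close to that share.

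**Figure D1:**
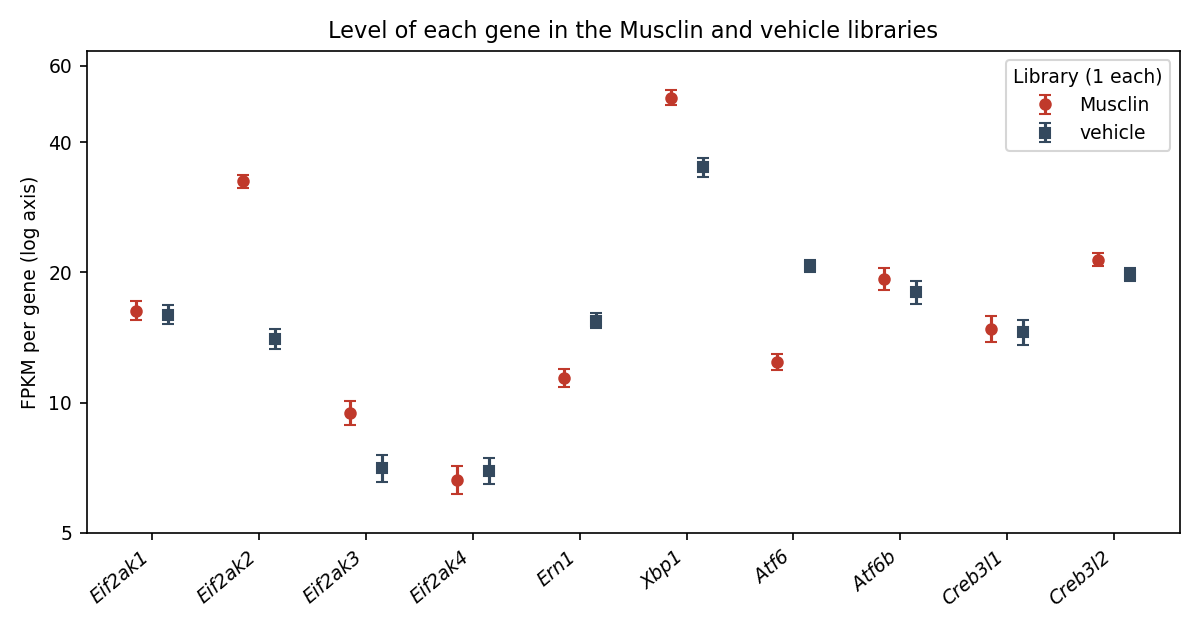
FPKM per gene on a log axis for the 10 genes, with the Musclin library as red circles and the vehicle library as dark squares, 1 library each. Bars are 95% counting intervals. Eif2ak2 and Xbp1 stand higher and Atf6 and Ern1 lower in the Musclin library, while Eif2ak1, Eif2ak4, Atf6b and Creb3l1 have overlapping intervals.

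The order of the levels differed between the libraries mainly through Eif2ak2 and Atf6. Xbp1 had the highest level of the 10 and Eif2ak4 the lowest in both. Eif2ak2 ranked 2 of 10 with Musclin and 8 of 10 with vehicle, while Atf6 ranked 7 with Musclin and 2 with vehicle. With Musclin, the neighbours in that order whose counting intervals overlapped were Eif2ak1 with Creb3l1 and Atf6 with Ern1. With vehicle, overlaps linked Atf6, Creb3l2 and Atf6b, then Eif2ak1, Ern1, Creb3l1 and Eif2ak2, and last Eif2ak3 and Eif2ak4, each gene overlapping the next in the order.

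Among the eIF2 kinases, PKR and PERK transcripts were higher with Musclin, those of PERK by less than 1.5-fold. In the gene totals of HRI and GCN2 no difference was detectable at this depth. Eif2ak2 (ENSMUSG00000024079, chromosome 17, 78852564 to 78882573, minus strand) was at 32.4 FPKM with Musclin, counting interval 31.3 to 33.6, and at 14.0 FPKM with vehicle, 13.3 to 14.8. Its log2 ratio was 1.15, higher than 98.7% of all genes, and its aligned-base ratio was 2.24 with a 95% interval of 2.10 to 2.40, from 2949 fragment equivalents with Musclin and 1327 with vehicle. At a pseudocount of 5 its log2 ratio was 0.98, just short of 2-fold. PKR is itself the product of an interferon-induced gene.

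Eif2ak3 (ENSMUSG00000031668, chromosome 6, 70844515 to 70905245, plus strand) was at 9.47 FPKM in Musclin-treated FAPs and 7.05 FPKM in vehicle FAPs. The counting intervals, 8.87 to 10.1 FPKM with Musclin and 6.54 to 7.59 FPKM with vehicle, did not overlap, and the log2 ratio of 0.38 stood at percentile 88.3 of all genes. The aligned-base ratio was 1.35 (1.22 to 1.49).

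Eif2ak1 (ENSMUSG00000029613, chromosome 5, 143817788 to 143904251, plus strand) was at 16.3 FPKM in Musclin-treated FAPs and 16.0 FPKM in vehicle FAPs, with an aligned-base ratio of 1.02 (0.953 to 1.10). Over 488 of its bases it overlaps Aimp2 on the opposite strand, which was at 17.9 with Musclin and 16.9 FPKM with vehicle, and without stated strand the reads there cannot be told apart. Eif2ak4 (ENSMUSG00000005102, chromosome 2, 118388618 to 118475234, plus strand) was at 6.64 FPKM in Musclin-treated FAPs and 6.96 FPKM in vehicle FAPs, with an aligned-base ratio of 0.957 (0.865 to 1.06). For these 2 kinases a difference in the gene total was not detectable at this depth.

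The make-up of the kinase messages differed between the libraries. The 4 genes summed to 64.9 FPKM in Musclin-treated FAPs and 44.0 FPKM in vehicle FAPs. Eif2ak2 held 50.03% of that sum with Musclin and 31.9% with vehicle. Eif2ak1 held 25.1% with Musclin and 36.3% with vehicle, Eif2ak3 held 14.6% with Musclin and 16.0% with vehicle, and Eif2ak4 held 10.2% with Musclin and 15.8% with vehicle. A share also depends on the sum, and a lower share need not be a lower level. Eif2ak1 was at 16.3 with Musclin and 16.0 FPKM with vehicle, and Eif2ak3 at 9.47 with Musclin and 7.05 FPKM with vehicle. Eif2ak4 was at 6.64 with Musclin and 6.96 FPKM with vehicle. With vehicle Eif2ak1 was the most abundant of the kinases and with Musclin Eif2ak2 was.

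**Figure D2:**
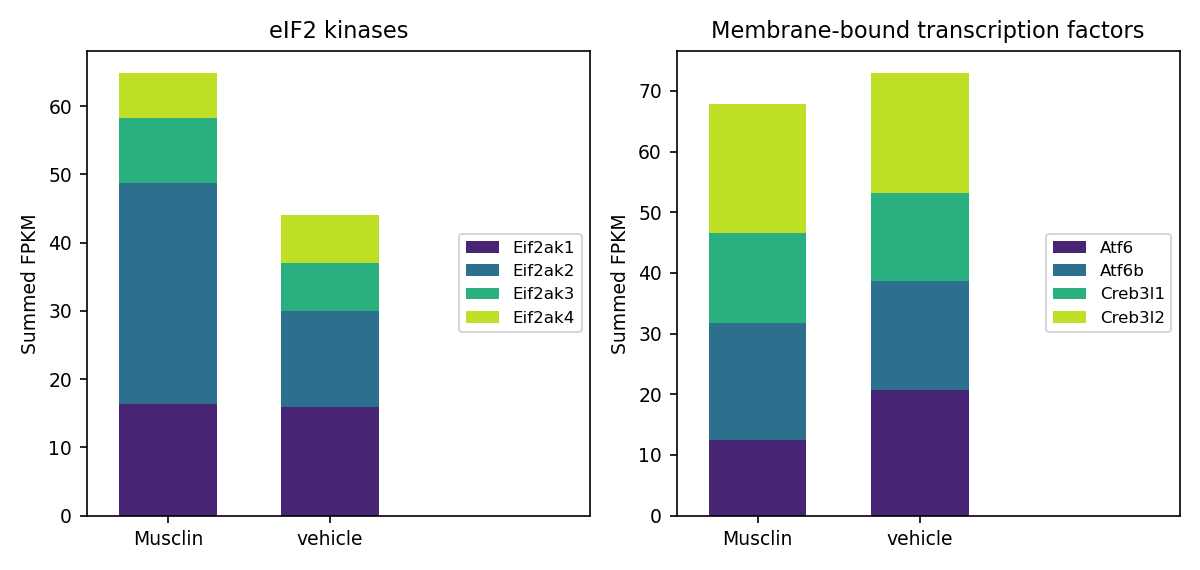
Summed FPKM of the 4 eIF2 kinase genes (left) and of the 4 genes for membrane-bound transcription factors (right) in the Musclin and vehicle libraries, stacked by gene. The kinase sum is 64.9 FPKM in Musclin-treated FAPs and 44.0 FPKM in vehicle FAPs, with most of the difference in Eif2ak2, and the other sum is 67.9 with Musclin and 73.0 FPKM with vehicle, with Atf6 the segment that is smaller with Musclin.

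In the IRE1 branch the sensor gene was lower and the gene of its substrate was higher with Musclin, both within 1.5-fold. Both also lay inside the 5th to 95th percentile of all genes, and 57.7% of all genes had a counting interval that excluded 1. Ern1 (ENSMUSG00000020715, chromosome 11, 106394650 to 106487852, minus strand) was at 11.4 FPKM with Musclin, interval 10.9 to 12.0, and at 15.5 FPKM with vehicle, 14.8 to 16.1. Its log2 ratio of -0.41 stood at percentile 10.99 of all genes, and its aligned-base ratio was 0.731 (0.686 to 0.778). Xbp1 (ENSMUSG00000020484, chromosome 11, 5520659 to 5525893, plus strand) was at 50.7 FPKM with Musclin, interval 48.6 to 52.8, and at 35.0 FPKM with vehicle, 33.3 to 36.7. Its log2 ratio was 0.52, at percentile 93.1, and its aligned-base ratio 1.43 (1.34 to 1.52). The quotient of Xbp1 over Ern1 levels was 4.43 with Musclin and 2.26 with vehicle.

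Xbp1 was the gene of the set whose total was most divided among transcripts. The full-length coding form ENSMUST00000063084, with 5 exons and 2129 bases, was at 43.1 FPKM in Musclin-treated FAPs and 30.8 FPKM in vehicle FAPs, or 85.1% of the gene with Musclin and 87.9% with vehicle. ENSMUST00000149159 was at 2.94 FPKM in Musclin-treated FAPs and 1.15 FPKM in vehicle FAPs, resting on 73 fragment equivalents with Musclin and 29 with vehicle, with a counting interval of the ratio from 1.63 to 4.05. Its last exon, chr11:5524239-5525105, runs through all 300 bases of the intron that the full-length form removes after exon 4. ENSMUST00000145588, a retained-intron form that keeps 559 bases of the intron after exon 3 and ends before the IRE1 stretch, was at 2.64 with Musclin and 1.61 FPKM with vehicle, with an interval of the ratio from 1.08 to 2.58. ENSMUST00000149623, which starts from within the first intron, was at 1.96 with Musclin and 1.46 FPKM with vehicle, and its interval of 0.818 to 2.24 included 1. All 4 forms had a higher FPKM with Musclin. The full-length form had a ratio of 1.40, which the interval of ENSMUST00000149159 excluded and the intervals of ENSMUST00000145588 and ENSMUST00000149623 included. The forms share exons, and these intervals do not cover error in dividing reads among them. Whether the forms differ in ratio was therefore not tested.

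**Figure D3:**
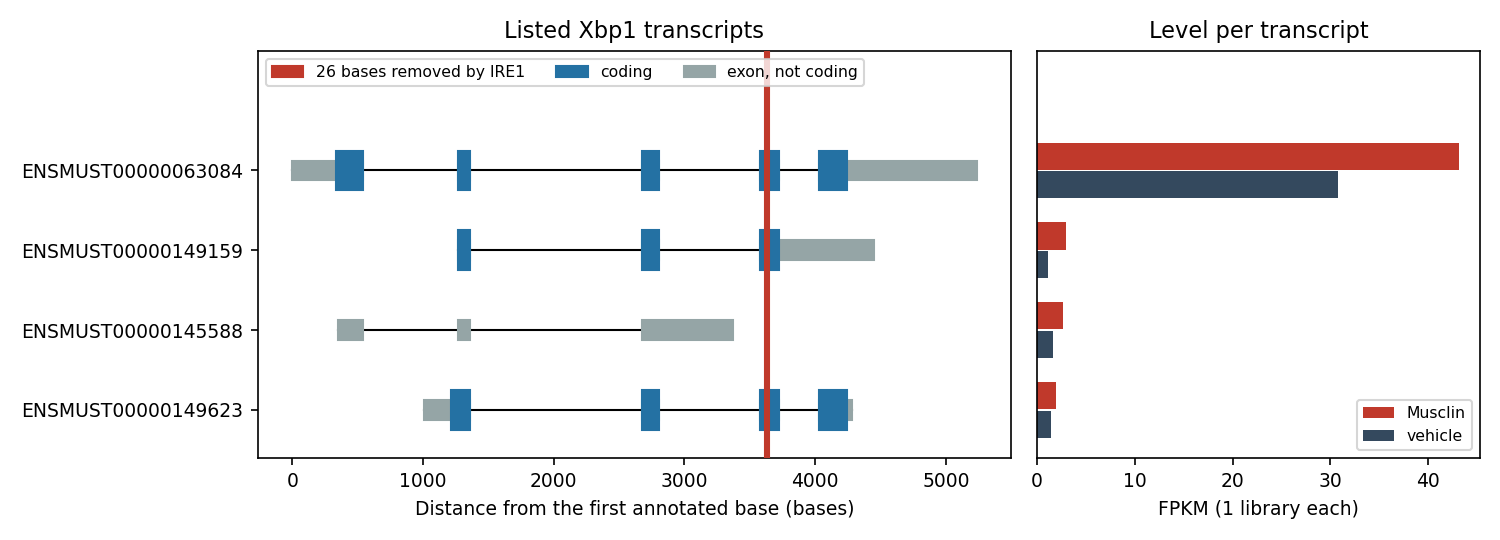
Left, exons of the 4 listed Xbp1 transcripts by distance in bases from the first annotated base of the gene, with coding parts in blue, other exon parts in grey and the position of the 26 bases removed by IRE1 as a red line across all rows. Right, FPKM per transcript, with the Musclin library in red and the vehicle library in dark grey, 1 library each. The full-length form carries most of the level at 43.1 FPKM in Musclin-treated FAPs and 30.8 FPKM in vehicle FAPs.

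Atf6 messages were lower with Musclin, and for its close relative Atf6b no difference was detectable at this depth. Atf6 (ENSMUSG00000026663, chromosome 1, 170704674 to 170867771, minus strand) was at 12.4 FPKM with Musclin, interval 11.9 to 12.97, and at 20.7 FPKM with vehicle, 20.0 to 21.4. Its log2 ratio was -0.69, at percentile 3.54 of all genes, and its aligned-base ratio was 0.600 (0.568 to 0.634), from 2020 fragment equivalents with Musclin and 3398 with vehicle. At a pseudocount of 5 the log2 ratio was -0.56, short of 1.5-fold. Atf6b (ENSMUSG00000015461, chromosome 17, 34647146 to 34655074, plus strand) was at 19.3 FPKM in Musclin-treated FAPs and 17.99 FPKM in vehicle FAPs, and its aligned-base ratio of 1.07 (0.986 to 1.17) included 1. The level of Atf6 was 0.644 times that of Atf6b with Musclin and 1.15 times with vehicle.

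The genes of OASIS and BBF2H7 were within 1.5-fold of their vehicle levels. Creb3l1 (ENSMUSG00000027230, chromosome 2, 91982328 to 92024502, minus strand) was at 14.8 FPKM in Musclin-treated FAPs and 14.5 FPKM in vehicle FAPs, with an aligned-base ratio of 1.02 (0.925 to 1.12). Creb3l2 (ENSMUSG00000038648, chromosome 6, 37327255 to 37442146, minus strand) was at 21.4 FPKM in Musclin-treated FAPs and 19.8 FPKM in vehicle FAPs. Its aligned-base ratio of 1.08 (1.03 to 1.14) excluded 1, and its log2 ratio of 0.11 stood at percentile 67.5 of all genes. Of the other 3 genes of this family, Creb3 was at 28.8 with Musclin and 22.1 FPKM with vehicle, and Creb3l3 and Creb3l4 were below 1 FPKM in both libraries.

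**Figure D4:**
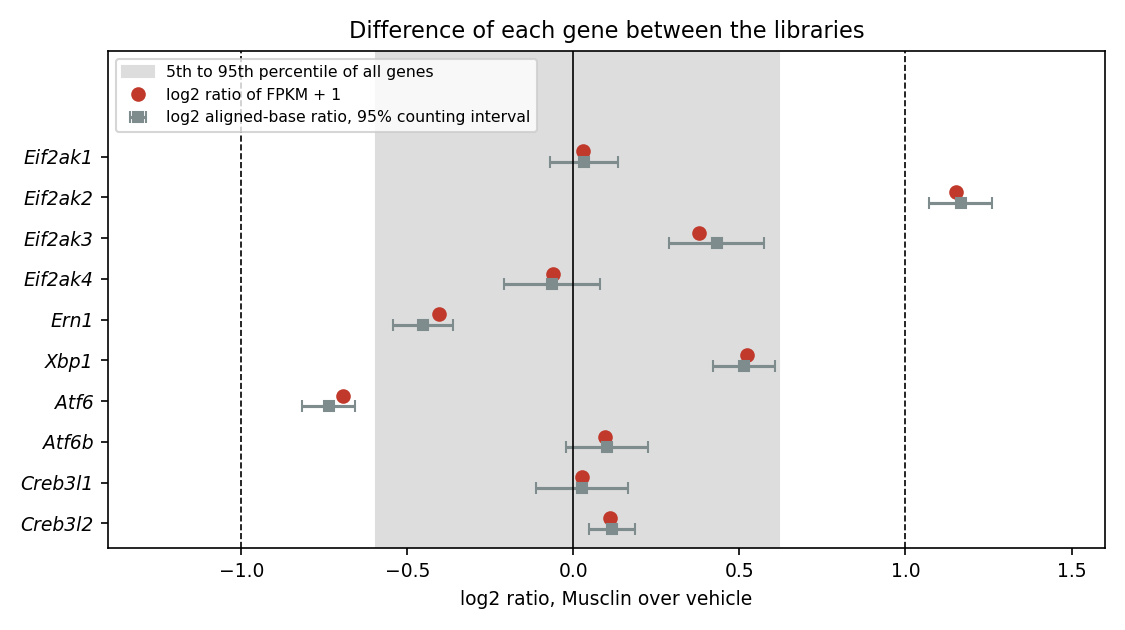
Log2 ratio of Musclin over vehicle for the 10 genes. Red circles are ratios of FPKM plus 1, grey squares are aligned-base ratios with 95% counting intervals, the grey band spans the 5th to 95th percentile of all genes (-0.59 to 0.62) and dashed lines mark 2-fold. Eif2ak2 lies past the upper dashed line and Atf6 is left of the band, while the other 8 genes lie inside the band.

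Each of the 10 genes, Xbp1 included, rested mainly on 1 transcript. Of the 36 listed transcripts 14 reached 1 FPKM in a library, and 8 of the 10 genes had 1 such transcript. The leading transcript was the same in both libraries for all 10 genes and held at least 85.1% of the gene's FPKM with Musclin and at least 87.9% with vehicle. For Eif2ak2, the full-length coding form ENSMUST00000024884 was at 30.1 FPKM in Musclin-treated FAPs and 13.5 FPKM in vehicle FAPs. A short non-coding form at the start of that gene, ENSMUST00000171451, was at 1.87 with Musclin and 0.372 FPKM with vehicle, on 24 fragment equivalents with Musclin and 5 with vehicle. The first 175 bases of the full-length form overlap the long non-coding gene Gm26637 on the opposite strand, which was not analysed here. The 22 forms under 1 FPKM reached at most 0.543 FPKM in Musclin-treated FAPs and 0.423 FPKM in vehicle FAPs.

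The authors' deposited table marks 2 of the 36 transcripts as significant, against 3.42% of all 88702, and the sources used here do not name the test behind the mark. In the authors' deposited table ENSMUST00000024884 of Eif2ak2 has a fold of 2.23 and a q-value of 2.14e-07. In the authors' deposited table the Xbp1 form ENSMUST00000149159 has a fold of 2.56 and a q-value of 1.84e-06. Another 3 transcripts have a q-value under 0.05 in the authors' deposited table without the mark, which is given at folds of at least 2: the full-length Xbp1 form (0.0484), ENSMUST00000145588 (0.0169) and the Atf6 form ENSMUST00000027974 (0.00246). The main forms of Eif2ak3 and Ern1 have q-values of 0.0760 and 0.0870 in the authors' deposited table.

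The genes around these sensors were described by lists, each with its count past 2-fold and its median log2 ratio. All the lists were chosen with earlier results of these data known, so their counts are not independent of the data. Over all 12884 genes, 1.71% passed 2-fold upward and 1.52% downward. Of 14 measured interferon-induced genes, 12 passed 2-fold upward with Musclin and 0 downward, with a median of 1.59. The transcription factor gene Irf7 was at 19.6 FPKM in Musclin-treated FAPs and 2.58 FPKM in vehicle FAPs. Of 12 measured genes of double-stranded RNA sensing, the signal that PKR reads, 7 passed 2-fold upward and 0 downward, with a median of 1.23. Ddx58, which encodes the RNA sensor RIG-I, was at 44.0 FPKM in Musclin-treated FAPs and 11.2 FPKM in vehicle FAPs, and Oasl2, an oligoadenylate synthetase-like gene, at 33.3 with Musclin and 5.88 FPKM with vehicle. The list median was 0.62 at a pseudocount of 5 and 1.58 in aligned bases, where Eif2ak2 had log2 ratios of 0.98 and 1.17, so Eif2ak2 lay on either side of it by setting. Mavs, the adaptor of RIG-I, was at 16.4 with Musclin and 20.4 FPKM with vehicle, named after its values were seen.

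Genes of the branch downstream of eIF2 were mostly lower with Musclin. Of 25 measured genes of the ATF4 and CHOP branch, 23 were 2-fold or more lower with Musclin and 0 higher, with a median of -1.53. Cth, Trib3 and Chac1 had log2 ratios of -3.604, -2.89 and -2.71. Atf4 itself was at 69.0 FPKM in Musclin-treated FAPs and 152 FPKM in vehicle FAPs, and the 2 genes short of 2-fold were Ddit4, which restrains mTORC1, at 38.7 with Musclin and 26.8 FPKM with vehicle, and Cebpb, a C/EBP family factor, at 1.53 with Musclin and 1.85 FPKM with vehicle, all 3 named after their values were seen. Many of these genes were known to be lower in these data when the list was drawn up.

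The substrate and the regulators of the kinases mostly lay within 2-fold. Of 8 genes for eIF2 and its exchange factor eIF2B, 0 were past 2-fold, with a median of 0.09. Eif2s1, which encodes the subunit that the kinases phosphorylate, was at 34.1 FPKM in Musclin-treated FAPs and 34.2 FPKM in vehicle FAPs, named after its values were seen, while the eIF2B subunit gene Eif2b3 was at 15.05 with Musclin and 24.9 FPKM with vehicle and the eIF2β gene Eif2s2 at 66.4 with Musclin and 98.8 FPKM with vehicle. Of 9 kinase regulators and eIF2 phosphatase genes, 1 was 2-fold or more lower and 0 higher, with a median of 0.03. That gene was Ppp1r15a, the inducible phosphatase subunit GADD34, at 17.3 FPKM in Musclin-treated FAPs and 54.8 FPKM in vehicle FAPs, and it also counts in the ATF4 list. Dele1 and Oma1, whose products relay mitochondrial stress to HRI, were at 7.54 with Musclin and 11.02 FPKM with vehicle and at 5.61 with Musclin and 3.595 FPKM with vehicle.

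Targets of the ER branches were 2-fold or more higher in 3 cases, all on the ATF6 list. Of 15 XBP1s target genes 0 were past 2-fold, 5 were past 1.5-fold upward and 0 downward, 13 had a log2 ratio above 0, beside 46.9% of all genes, and the median was 0.49, beside 0.52 for Xbp1 itself. Syvn1, the ubiquitin ligase of ER-associated degradation, was at 18.7 FPKM in Musclin-treated FAPs and 10.1 FPKM in vehicle FAPs, the ER prolyl isomerase gene Fkbp11 at 13.5 with Musclin and 7.05 FPKM with vehicle, and the translocon gene Sec61b at 36.0 with Musclin and 21.0 FPKM with vehicle. Of 11 ATF6 target genes 3 passed 2-fold upward and 0 downward, 7 were past 1.5-fold upward and 1 downward, 9 had a log2 ratio above 0, and the median was 0.70, beside -0.69 for Atf6 itself. The 3 were Creld2, Manf and Calr, with log2 ratios of 1.21, 1.19 and 1.08. The 2 below 0 were Herpud1 and Sel1l, both of ER-associated degradation and named after their values were seen. Herpud1 was at 31.0 FPKM in Musclin-treated FAPs and 61.8 FPKM in vehicle FAPs. Its log2 ratio was -0.97, near the edge of the 2-fold rule. Sel1l was at 32.03 with Musclin and 40.7 FPKM with vehicle.

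Partners that hold or process the sensors had a median log2 ratio of -0.02 over 10 genes, with 1 gene 2-fold or more higher and 0 lower. Hspa5 encodes BiP, the chaperone that binds the sensors in unstressed ER and an ATF6 target as well, and was at 416 FPKM in Musclin-treated FAPs and 297 FPKM in vehicle FAPs. Pdia6, a disulfide isomerase that acts on IRE1 and PERK, was at 164 FPKM in Musclin-treated FAPs and 81.4 FPKM in vehicle FAPs. Its log2 ratio of 1.00 was on the edge of the rule, and it was short of 2-fold at a pseudocount of 5, after rescaling to TPM, with protein-coding transcripts alone and with the leading transcript alone. Tmbim6, a negative regulator of IRE1, was at 127 with Musclin and 214 FPKM with vehicle. The protease genes Mbtps1 and Mbtps2, whose products release ATF6, were at 26.9 with Musclin and 30.9 FPKM with vehicle and at 11.3 with Musclin and 14.0 FPKM with vehicle, named after their values were seen.

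Of 6 mRNAs that IRE1 is known to degrade in mouse fibroblasts, 0 were past 2-fold, with a median of -0.11. Col6a1, a collagen VI gene, was at 53.5 FPKM in Musclin-treated FAPs and 82.3 FPKM in vehicle FAPs, and Pdgfrb, a growth factor receptor gene, at 181 with Musclin and 271 FPKM with vehicle. Bloc1s1, the most often used marker of this decay, was at 7.26 with Musclin and 6.54 FPKM with vehicle, named after its values were seen. Of 9 collagen and COPII vesicle genes, which OASIS factors are known to serve, 0 were past 2-fold, with a median of 0.38, or 0.18 with the leading transcript alone. The coat genes Sec23a and Sec24d were at 57.2 with Musclin and 34.3 FPKM with vehicle and at 57.6 with Musclin and 38.4 FPKM with vehicle, and Col1a1, named after its values were seen, at 345 with Musclin and 361 FPKM with vehicle.

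**Figure D5:**
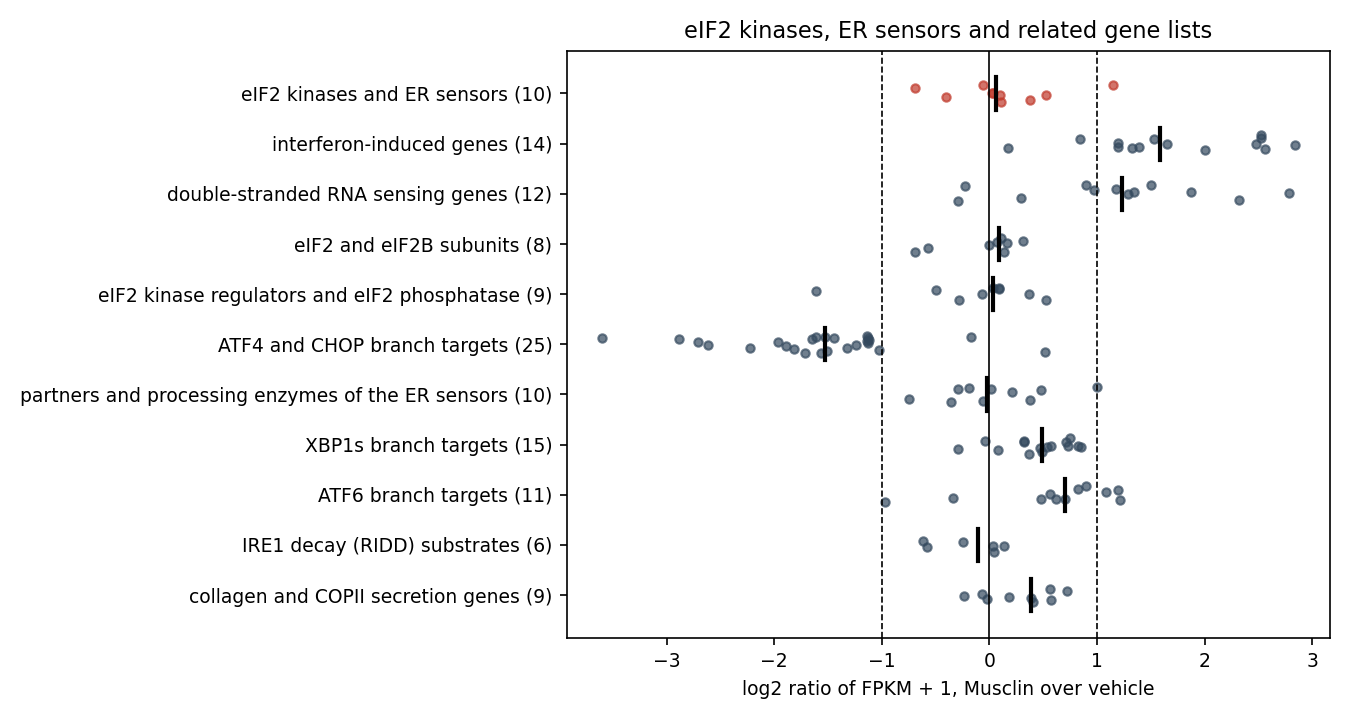
Log2 ratio of FPKM plus 1, Musclin over vehicle, for the 10 genes (red) and for the measured genes of 10 related lists (dark), 1 point per gene, with the number of genes in brackets, black bars for medians and dashed lines for 2-fold. Medians run from 1.59 for interferon-induced genes to -1.53 for the ATF4 and CHOP branch, and the 10 genes have a median of 0.06.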

How the data were processed

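RNA-seq of 1 Musclin and 1 vehicle library of mouse FAPs was read from 1 deposited table of 88702 transcripts. FPKM values per transcript were made by the authors, per the file headers. The fold (ratio), its log2, and the p-values and q-values are the authors' deposited columns. The deposited fold equals the FPKM ratio, with 0 replaced by 0.0001. StringTie, DESeq2 and edgeR are listed in the submitters' processing notes, without roles or versions. For aligner and build: not given in the sources used here. All 36 transcripts of the 10 genes have the start and end of GENCODE vM21 on GRCm38.

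FPKM was summed per gene, and log2 ratios of Musclin over vehicle used a pseudocount of 1 and a floor of 1 FPKM in either library. For genes of 1 exon and 1 listed transcript, FPKM times length came in steps of 1 aligned base (68.4% of values whole within 0.1 in each library, 5743 genes with Musclin and 5675 with vehicle), which gave the depth. Exact Clopper-Pearson 95% intervals of ratios, and exact Poisson intervals of levels, were computed on fragment equivalents of 298 bases with SciPy 1.17.1. They cover counting error only. Reads were not available as counts, so no count test was run. The procedure was tested on simulated counts that held counting error alone, which is what the intervals assume. That test therefore bears on no other source of error.

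Named were the 10 genes, their transcripts at 1 FPKM or more and up to 3 genes per list at 5 FPKM or more with the largest absolute log2 ratio. Not all of those are printed. The genes and the 18 lists were chosen with earlier results of these data known. With 2 libraries no likeness of pattern between genes can be measured. Near-identical stretches were sought with BLAST 2.17.0. Alternatives were other pseudocounts, scalings, floors and transcript choices.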

Additional observations from a re-analysis of the deposited data

How the results depend on the processing

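No paired analysis was possible because each group has 1 library. Under 9 alternatives none of the 10 log2 ratios changed sign, though the other pseudocounts and floors among them could not change a sign. Eif2ak2 ran from 0.98 to 1.20, Atf6 from -0.74 to -0.56 and Ern1 from -0.45 to -0.32. Xbp1 ran from 0.47 to 0.55 and Eif2ak3 from 0.26 to 0.43. At a pseudocount of 5, which shrinks ratios by construction, 0 of the 10 genes were 2-fold or more higher, 0 were 1.5-fold or more lower and 3 double-stranded RNA sensing genes were 2-fold or more higher. After rescaling to TPM 1 ATF6 target was 2-fold or more lower, against 0 as reported. Herpud1 was the ATF6 target nearest that edge as reported, with a log2 ratio of -0.97. With leading transcripts alone 1 double-stranded RNA sensing gene was 2-fold or more lower, against 0 as reported, and the cause was not tested. Of 99 list medians 88 moved by less than 0.2 and none of the rest reversed. Over all genes, 220 were 2-fold or more higher and 196 lower as reported, against 400 and 360 at a pseudocount of 0.1, 97 and 71 at a pseudocount of 5, 327 and 297 in TPM, 409 and 382 in aligned bases and 369 and 358 with leading transcripts. Counting single reads in place of pairs brought the intervals that exclude 1 to 7, with Atf6b added, against 6. The share over all genes was not computed with single reads, so this count has no background beside it. With 1 library per group, differences between cultures cannot be told apart from an effect of Musclin.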
